A study of Sus scrofa with 6 samples.

Results

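The contractile genes of slow (type I) muscle fibres were followed pig by pig in longissimus dorsi, the long muscle of the back. They were chosen as a list of 10 gene symbols, *MYH7*, *MYH7B*, *MYL2*, *MYL3*, *TNNT1*, *TNNI1*, *TNNC1*, *TPM3*, *ATP2A2* and *CASQ2*, and looked up by Ensembl pig symbol. Of these, 7 matched a gene among the 30476 in the count matrix, and all 7 were among the 13402 genes with enough counts to be tested. *MYH7*, *TPM3* and *CASQ2* matched no identifier under their symbols and were not analysed here.

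RNA was sequenced from 3 UCP1 KI pigs and 3 WT pigs, all 6 months old, with 1 library per pig. The UCP1 KI pigs carry *UCP1*, the uncoupling protein of brown fat mitochondria, inserted with CRISPR/Cas9 so that it is active in adipocytes, and the promoter that drives it is not given in the sources used here. The muscle itself was therefore not the tissue targeted, and the WT pigs carry no insertion. Since *UCP1* matched no identifier, the genotype was not checked against the counts, and neither the sex nor the litter of the pigs is given in the sources used here.

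Slow fibres contract slowly, resist fatigue and rely on mitochondrial oxidation, whereas fast fibres contract quickly and draw more on glycolysis. Each type uses its own set of paralogous proteins. In the sarcomere these are a myosin heavy chain motor, light chains that modulate it and troponin subunits that couple calcium to contraction. In the sarcoplasmic reticulum, a calcium pump ends the contraction. In pigs the longissimus dorsi is known as a muscle in which fast fibres predominate, with slow fibres gathered in clusters. In whole muscle, fewer slow fibres and less slow-fibre RNA per fibre cannot be told apart.

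The libraries held between 30220951 and 35066624 counts. Levels are given as CPM, the count per 1000000 counts of a library total scaled by its TMM factor, and these factors ran between 0.781 for WT replicate 2 and 1.18 for UCP1 KI replicate 2. Mitochondrially encoded genes took 40.7% of the counts in WT replicate 2 and 22.3% to 31.2% in the other libraries. Defining genes of skeletal muscle were present in every pig, with 7 of 8 listed markers found and 48598 to 75772 CPM summed over them, skeletal muscle actin (*ACTA1*) among them. Between libraries, counts differed by far more than sampling noise, so no library was a copy of another.

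The 7 slow fibre genes were high in the same pigs and low in the same pigs, and the genotypes did not separate them. WT replicate 1 was highest for 7 of 7 genes and WT replicate 2 was lowest for 6 of 7. For those 6 genes all 3 UCP1 KI pigs lay between these WT pigs, an arrangement of the UCP1 KI pigs within the WT range that 20.8% of all genes tested had. WT replicate 1 highest together with WT replicate 2 lowest held for 4.01% of genes tested. For 0 of 7 did the groups separate without overlap, against 15.3% of all genes tested. Together the 7 genes took 1.23%, 1.30% and 0.875% of the counts in UCP1 KI replicates 1 to 3, and 1.96%, 0.344% and 0.526% in WT replicates 1 to 3.

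Among the motors, only *MYH7B* could be read. *MYH7B* (ENSSSCG00000007288, chr17:38362158-38385680 in the RefSeq annotation of Sscrofa11.1) encodes a slow-type myosin heavy chain related to the main slow myosin MYH7 and hosts the microRNA miR-499. It was at 130.5, 206 and 63.2 CPM in UCP1 KI replicates 1 to 3 and 495, 66.7 and 93.9 CPM in WT replicates 1 to 3. WT replicate 1 stood far above the rest, and this was the single member whose lowest pig was UCP1 KI replicate 3. The group means were 133 ± 71.3 CPM in UCP1 KI and 219 ± 239.9 CPM in WT (SD, n = 3). The log2 fold change, UCP1 KI against WT, in the edgeR quasi-likelihood test with Benjamini-Hochberg adjusted p over all genes tested, was -0.72 (SE 0.78, 95% interval -2.53 to 1.10, adjusted p = 0.821). Without WT replicate 1 it turned to 0.73.

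The main slow myosin gene *MYH7* lies at chr7:75650841-75672908 in the same annotation and was not analysed here. The symbol of its close paralog *MYH6*, the alpha cardiac myosin heavy chain, belongs to ENSSSCG00000002029, which was put on a list of slow-associated genes rather than among the members. That gene was at 5587, 6477 and 3597 CPM in UCP1 KI replicates 1 to 3 and 8628, 1171 and 2396 CPM in WT replicates 1 to 3. As in most members, WT replicate 1 was highest and WT replicate 2 lowest. The log2 fold change was 0.36 (SE 0.71, adjusted p = 0.902) in edgeR, and without WT replicate 1 it was 1.55, past the study's limits (an unadjusted p under 0.05 with an absolute log2 fold change above 0.5). It turned to -0.079 without WT replicate 2. Because *MYH6* and *MYH7* are near-identical, reads of one can be assigned to the other, and whether this row holds *MYH7* reads cannot be told from the counts.

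**Figure D1:**
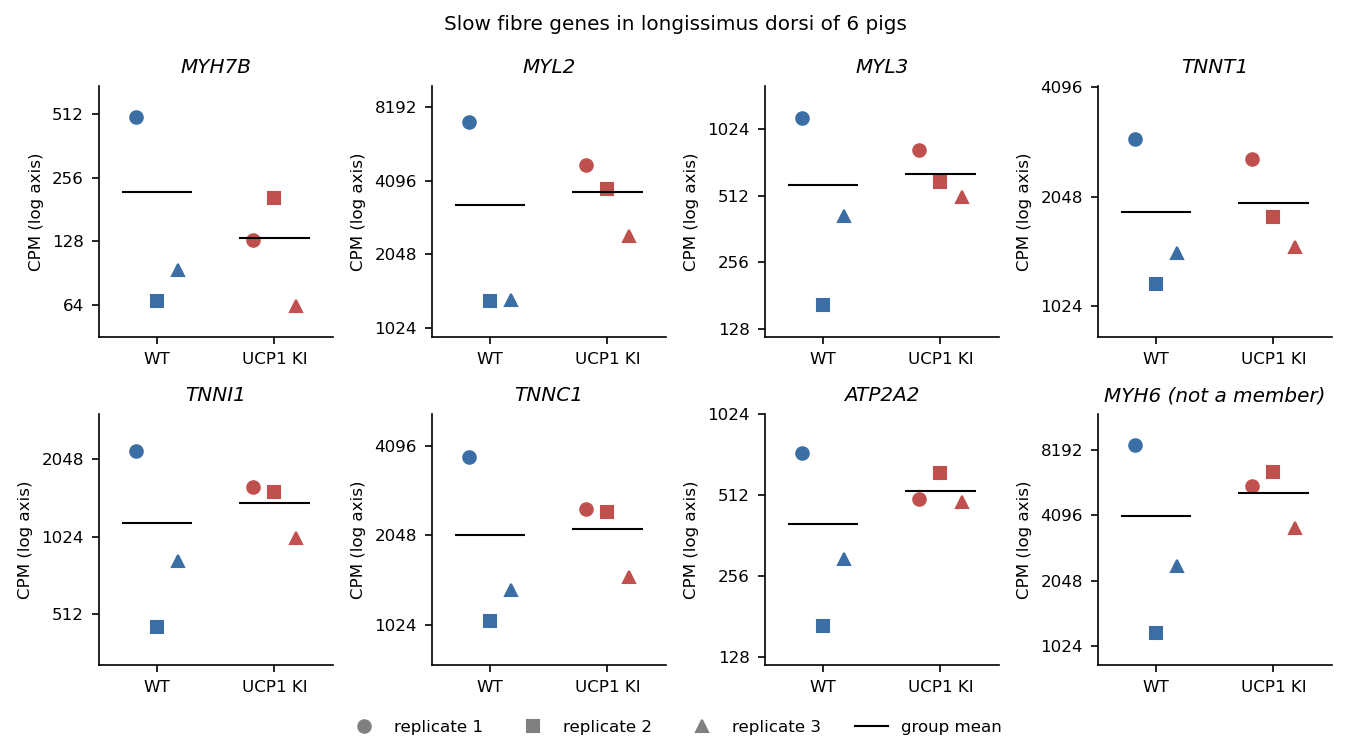
Level of each of the 7 slow fibre genes and of the *MYH6* row in the 6 pigs, in CPM on a log axis of base 2. Each point is 1 pig and the marker shape is the replicate number, which was not used as a pairing. The horizontal line is the arithmetic mean of the 3 pigs of a group. WT replicate 1 is the highest pig in every panel, and the UCP1 KI pigs lie between WT replicates 1 and 2 in all panels but that of *MYH7B*.

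Of the light chains, *MYL2* (ENSSSCG00000039710, chr14:32205953-32213848) encodes the regulatory light chain of slow and ventricular muscle. Its level was 4771, 3804 and 2429 CPM in UCP1 KI replicates 1 to 3 and 7139, 1316 and 1333 CPM in WT replicates 1 to 3. WT replicates 2 and 3 were nearly equal and lay below every UCP1 KI pig, whereas WT replicate 1 lay above them all. Means were 3668 ± 1177 CPM in UCP1 KI and 3263 ± 3357 CPM in WT (SD, n = 3), and the edgeR log2 fold change was 0.17 (SE 0.71, 95% interval -1.47 to 1.81, adjusted p = 0.956). *MYL3* (ENSSSCG00000011325, chr13:29730271-29735616) encodes the matching essential light chain. For *MYL3* the pigs stood at 821, 590.1 and 506 CPM in UCP1 KI replicates 1 to 3 and 1147, 164 and 412 CPM in WT replicates 1 to 3. The WT pigs again enclosed the UCP1 KI pigs, with a 6.99-fold range between WT pigs and a 1.62-fold range between UCP1 KI pigs. Its log2 fold change was 0.15 (SE 0.63, 95% interval -1.32 to 1.63, adjusted p = 0.956) in edgeR. Leaving out WT replicate 1 moved *MYL2* to 1.47 and *MYL3* to 1.16, of which *MYL2* passed the same limits, and leaving out WT replicate 2 turned them to -0.21 and -0.29. Both also turned without UCP1 KI replicate 1 (-0.062 and -0.064) and without WT replicate 3 (-0.20 and -0.035).

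The slow troponin subunits had the same arrangement of pigs. *TNNT1* (ENSSSCG00000025353, chr6:59351445-59365584) encodes slow troponin T, which anchors the complex to tropomyosin. *TNNT1* was found at 2609, 1806 and 1495 CPM in UCP1 KI replicates 1 to 3 and 2949.6, 1179 and 1436 CPM in WT replicates 1 to 3. Its 2.50-fold range between WT pigs was the narrowest of the 7 genes. The edgeR log2 fold change was 0.087 (SE 0.44, 95% interval -0.93 to 1.11, adjusted p = 0.968). *TNNI1* (ENSSSCG00000024061, chr10:23788279-23800554) encodes slow troponin I, the inhibitory subunit. *TNNI1* reached 1606, 1524 and 1018 CPM in UCP1 KI replicates 1 to 3 and 2199.8, 456 and 823 CPM in WT replicates 1 to 3. UCP1 KI replicates 1 and 2 were close together, and both remaining WT pigs lay below UCP1 KI replicate 3. Its edgeR log2 fold change was 0.25 (SE 0.56, 95% interval -1.06 to 1.57, adjusted p = 0.914). *TNNC1* (ENSSSCG00000011441, chr13:34591571-34594320) encodes the calcium-binding troponin C of slow and cardiac muscle. *TNNC1* had 2519, 2459 and 1489 CPM in UCP1 KI replicates 1 to 3 and 3741, 1055 and 1344 CPM in WT replicates 1 to 3. UCP1 KI replicate 3 and WT replicate 3 were the closest neighbours of different genotype. The edgeR log2 fold change was 0.075 (SE 0.53, 95% interval -1.15 to 1.30, adjusted p = 0.976). Without WT replicate 1 the 3 values became 0.59 for *TNNT1*, 1.12 for *TNNI1* and 0.85 for *TNNC1*, and *TNNI1* passed the limits. Without WT replicate 2 all 3 turned, to -0.16, -0.13 and -0.24. *TNNT1* and *TNNC1* also turned without UCP1 KI replicate 1 (-0.16 and -0.048) and without WT replicate 3 (-0.066 and -0.15), and *TNNC1* without UCP1 KI replicate 2 (-0.039).

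Calcium handling was represented by *ATP2A2* (ENSSSCG00000034386, chr14:31674659-31744981), which encodes SERCA2, the pump that returns calcium to the sarcoplasmic reticulum in slow and cardiac muscle. *ATP2A2* stood at 494, 619.8 and 484 CPM in UCP1 KI replicates 1 to 3 and 735, 168 and 296 CPM in WT replicates 1 to 3. The UCP1 KI pigs were within 1.28-fold of each other, the tightest range of any member, against 4.38-fold between WT pigs. Means were 533 ± 75.7 CPM in UCP1 KI and 399.5 ± 297 CPM in WT (SD, n = 3). With an edgeR log2 fold change of 0.41 (SE 0.51, 95% interval -0.78 to 1.61, adjusted p = 0.841), it had the highest value of the 7 genes. It kept its sign without each pig in turn, with values of 0.047 to 1.20, the highest, without WT replicate 1, being past the limits.

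Counted over the list, 0 of 7 slow genes passed the study's limits for a difference between genotypes in the edgeR quasi-likelihood test. Of all genes tested, 8.19% passed. DESeq2 on the same genes also called 0 of 7, and 0 of 7 had an unadjusted edgeR p under 0.05. No gene tested had a Benjamini-Hochberg adjusted edgeR p under 0.05, while 1100 had an unadjusted p under 0.05 and DESeq2 on the same genes gave 127 adjusted calls. The median log2 fold change was 0.15 for the 7 genes and -0.015 for all genes tested. The 95% intervals of the members ran as low as -2.53 and as high as 1.81, and so include differences of several fold in either direction.

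One library decided this count. Without WT replicate 1, 3 of 7 genes, *MYL2*, *TNNI1* and *ATP2A2*, passed both limits with higher levels in UCP1 KI, against 4.15% of all genes in that direction. All 7 log2 fold changes were then positive, with a median of 1.12, but the smallest Benjamini-Hochberg adjusted edgeR p among the 7 was 0.592. Every UCP1 KI pig exceeded both WT replicates 2 and 3 for 6 of the 7 genes, and this held for 13.3% of all genes tested. Since WT replicate 1 was the highest pig for all 7 genes, leaving it out favoured higher values in UCP1 KI. The shares of all genes include genes with another highest pig, so they are not a matched background. When any of the other 5 pigs was left out, 0 of 7 genes passed. The median of the 7 turned to -0.062 without UCP1 KI replicate 1, to -0.21 without WT replicate 2 and to -0.066 without WT replicate 3. No label sets WT replicate 1 apart, and the count with all 6 pigs is the one reported.

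**Figure D2:**
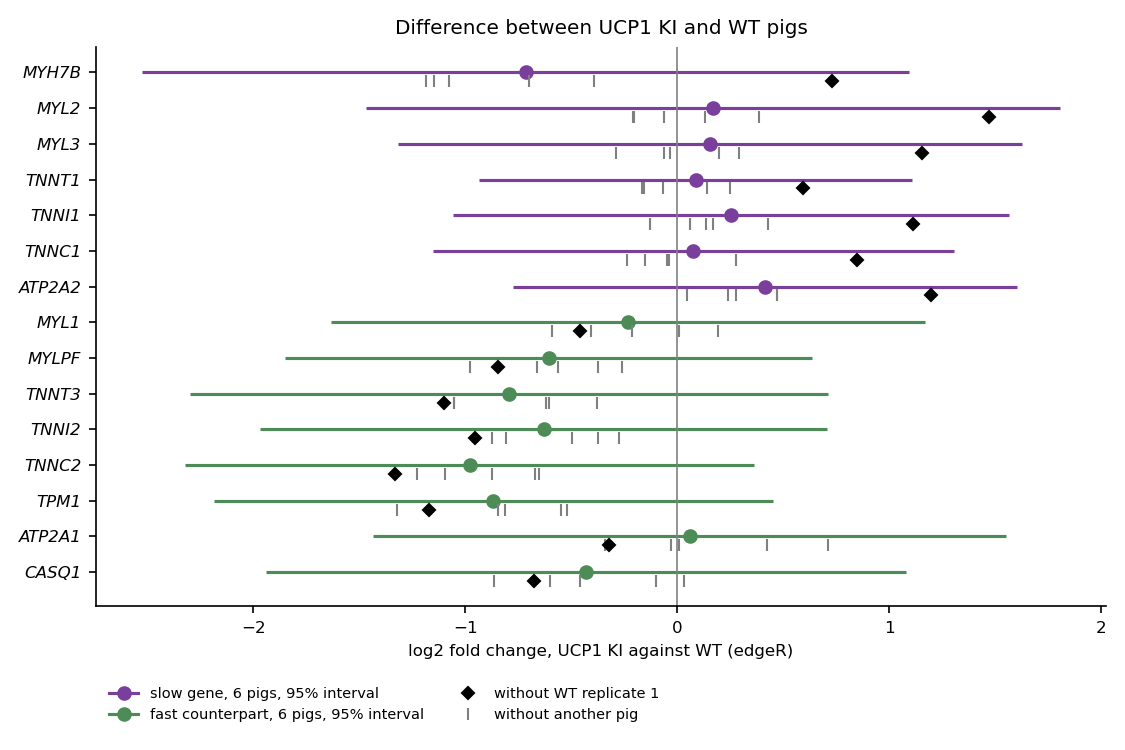
The edgeR log2 fold change, UCP1 KI against WT, of the 7 slow genes and their 8 fast counterparts. Circles and bars give the value and 95% interval with all 6 pigs, diamonds the value without WT replicate 1 and ticks the value without each other pig in turn; every interval spans 0, and each diamond of a slow gene lies to the right of its circle.

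The slow genes spread more between WT pigs than between UCP1 KI pigs, a difference that rested on 1 library. As the SD of log2(CPM + 1) over 3 pigs, its median over the 7 genes was 0.408 in UCP1 KI and 1.15 in WT, against 0.271 and 0.325 for all genes tested. The SD was larger in WT for 7 of 7 genes, and for 56.8% of all genes tested. The 7 genes are read from the same 6 libraries, so this is a single pattern seen in 7 genes. It also rested on WT replicate 1: between WT replicates 2 and 3 alone the median SD was 0.344, and it exceeded that of the UCP1 KI pigs for 3 of 7 genes. The fast counterparts spread differently, with a median SD of 0.930 in UCP1 KI and 0.716 in WT, and a larger SD in WT for 2 of 8. This order too rested on 1 library, since between UCP1 KI replicates 1 and 3 alone the median SD was 0.178, and the SD was then larger in WT for 8 of 8. Between WT replicates 2 and 3 alone the median SD of the fast genes was 0.228.

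**Figure D3:**
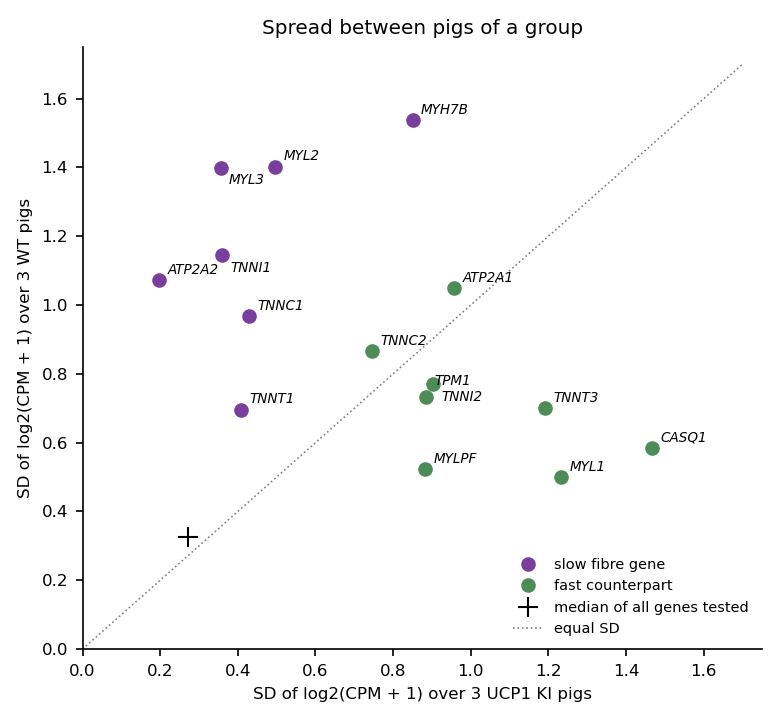
SD of log2(CPM + 1) over the 3 UCP1 KI pigs (horizontal axis) and over the 3 WT pigs (vertical axis) for each slow gene and each fast counterpart. The cross is the median of all genes tested in each group and the dotted line marks equal SD; all 7 slow genes lie above the line, and 6 of the 8 fast counterparts lie below it.

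The order of the pigs was also described on a scale shared by all genes, as log2(CPM + 1) minus the gene's own mean over the 6 pigs. The median over the 7 slow genes was 0.97 in WT replicate 1, 0.51 and 0.41 in UCP1 KI replicates 1 and 2, -0.24 in UCP1 KI replicate 3, -0.49 in WT replicate 3 and -1.12 in WT replicate 2. In WT replicate 1 all 7 genes were above their own mean, and in WT replicates 2 and 3 none was. *MYH7B* departed most from this order, at -1.05 in UCP1 KI replicate 3. *TNNT1* moved least in WT replicates 1 and 2.

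The fast counterparts followed another order, and UCP1 KI replicate 2 stood apart in them. These are the fast-fibre paralogs of the slow proteins, of which 8 of 11 were found (the fast myosins *MYH1*, *MYH2* and *MYH4* were not analysed here). UCP1 KI replicate 2 was lowest for 7 of 8, a position it had for 17.7% of all genes tested. *ATP2A1*, the fast-fibre calcium pump SERCA1, was the exception and was lowest in WT replicate 1. The highest pig was WT replicate 3 for 5 genes and WT replicate 2 for 3. Median centred values were -1.40 in UCP1 KI replicate 2, 0.34 and 0.18 in UCP1 KI replicates 1 and 3, and -0.34, 0.69 and 0.86 in WT replicates 1 to 3. The low pig of the slow genes, WT replicate 2, was thus above the mean for 7 of 8 fast genes, while UCP1 KI replicate 1 was above the mean for 8 of 8 fast and 6 of 7 slow genes.

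**Figure D4:**
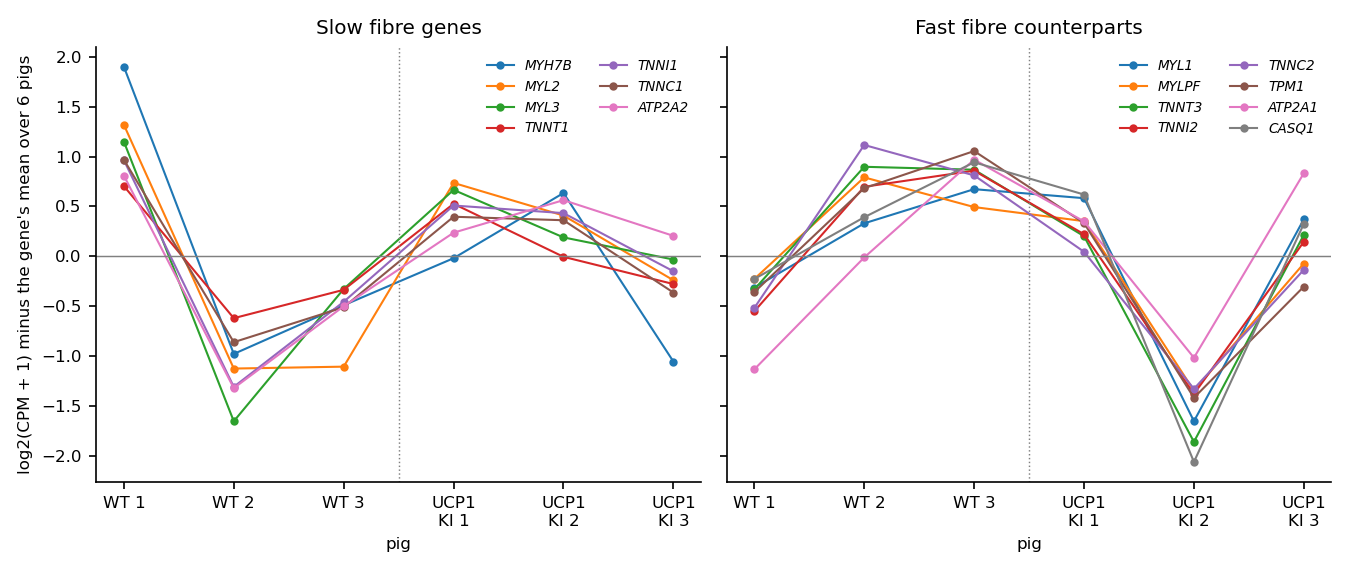
Level of each slow gene (left) and each fast counterpart (right) in the 6 pigs, as log2(CPM + 1) minus the mean of that gene over the 6 pigs. Lines join the values of 1 gene and the dotted line divides WT from UCP1 KI; slow genes peak in WT replicate 1 and are lowest in WT replicate 2 except *MYH7B*, and fast genes are lowest in UCP1 KI replicate 2 except *ATP2A1*.

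None of the 8 fast genes passed the limits between genotypes (0 of 8 in edgeR, with 0 at an unadjusted p under 0.05, and 0 in DESeq2 on the same genes), where 8.19% of all genes tested passed in edgeR and 9.77% in DESeq2, so a count of 0 is near the background for a list of this size. Their median log2 fold change was -0.62. *TNNC2*, fast troponin C, had the largest value. It was at 7799.6, 24153 and 19560.2 CPM in WT replicates 1 to 3 and 11514, 4450.0 and 10159.7 CPM in UCP1 KI replicates 1 to 3. WT replicate 1 lay within the UCP1 KI range, and the edgeR log2 fold change was -0.98 (SE 0.58, adjusted p = 0.68). Without WT replicate 1 it reached -1.33 and passed the limits. The others had log2 fold changes of -0.87 for *TPM1* (tropomyosin), -0.79 for *TNNT3* (fast troponin T), -0.63 for *TNNI2* (fast troponin I), -0.61 for *MYLPF* (fast regulatory light chain, listed as *MYL11*), -0.43 for *CASQ1* (fast calsequestrin), -0.23 for *MYL1* (fast essential light chain) and 0.06 for *ATP2A1*. Without UCP1 KI replicate 2 the median of the 8 was -0.27, and *MYL1*, *CASQ1* and *ATP2A1* had positive values of 0.19, 0.032 and 0.42. *ATP2A1* turned to -0.34, -0.32 and -0.031 without UCP1 KI replicate 3, WT replicate 1 and WT replicate 2, and *MYL1* to 0.01 without WT replicate 3. Of 6 further fast fibre genes 0 passed. One of them, *PVALB*, the calcium buffer parvalbumin, was at 103, 0.337 and 59.5 CPM in UCP1 KI replicates 1 to 3 and 101, 267 and 272 CPM in WT replicates 1 to 3. It was singled out after its values were seen, and its log2 fold change was -1.97, or -1.39 and past the limits without UCP1 KI replicate 2.

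A ratio of a slow gene to its fast paralog within a library does not depend on how the library was scaled, and it could be formed for 6 of 9 pairs. In counts of *MYL2* per 100 counts of *MYLPF*, the pigs had 40.1, 104 and 27.4 in UCP1 KI replicates 1 to 3 and 89.6, 8.16 and 10.2 in WT replicates 1 to 3. UCP1 KI replicate 2 and WT replicate 1 had by far the highest ratios, and WT replicates 2 and 3 the lowest. For *TNNI1* per 100 *TNNI2* the values were 15.9, 45.8 and 10.6 in UCP1 KI replicates 1 to 3 and 37.3, 3.26 and 5.26 in WT replicates 1 to 3. *TNNC1* per 100 *TNNC2* gave 21.9, 55.3 and 14.7 in UCP1 KI replicates 1 to 3 and 48.0, 4.37 and 6.87 in WT replicates 1 to 3. The troponin I and C pairs ordered the 6 pigs as the *MYL2* pair did, with UCP1 KI replicate 2 highest and WT replicate 2 lowest. *TNNT1* per 100 *TNNT3* was 15.1, 43.6 and 8.58 in UCP1 KI replicates 1 to 3 and 24.7, 4.22 and 5.25 in WT replicates 1 to 3. *MYL3* per 100 *MYL1* was 8.16, 27.6 and 5.82 in UCP1 KI replicates 1 to 3 and 21.2, 1.94 and 3.85 in WT replicates 1 to 3. Both had the same order of pigs. The pump pair differed at both ends. *ATP2A2* per 100 *ATP2A1* was 10.8, 35.0 and 7.59 in UCP1 KI replicates 1 to 3 and 45.0, 4.72 and 4.23 in WT replicates 1 to 3.

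The mean log2 ratio was higher in UCP1 KI for 6 of 6 pairs, by 1.31 for *MYL2*, 1.21 for *TNNC1*, 1.20 for *TNNI1*, 1.12 for *TNNT1*, 1.01 for *MYL3* and 0.56 for *ATP2A2*. In each pair the groups overlapped, because WT replicate 1 lay among or above the UCP1 KI pigs, and the differences were within the spread between pigs. Two-sided exact permutation tests over the 6 pigs gave p between 0.3 and 0.6, where 0.1 is the smallest that 3 pigs against 3 allow. All 3 UCP1 KI pigs were above both WT replicates 2 and 3 in 6 of 6 pairs. The differences were between 1.67 and 2.41 without WT replicate 1, and between -0.089 and 0.76 without UCP1 KI replicate 2, where that of *ATP2A2* turned. Without WT replicate 2 they shrank to 0.68 for *MYL2*, 0.52 for *TNNC1*, 0.50 for *TNNI1*, 0.65 for *TNNT1*, 0.28 for *MYL3* and 0.045 for *ATP2A2*. Without WT replicate 3 they lay between -0.034 for *ATP2A2*, which turned again, and 0.85 for *TNNC1*.

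**Figure D5:**
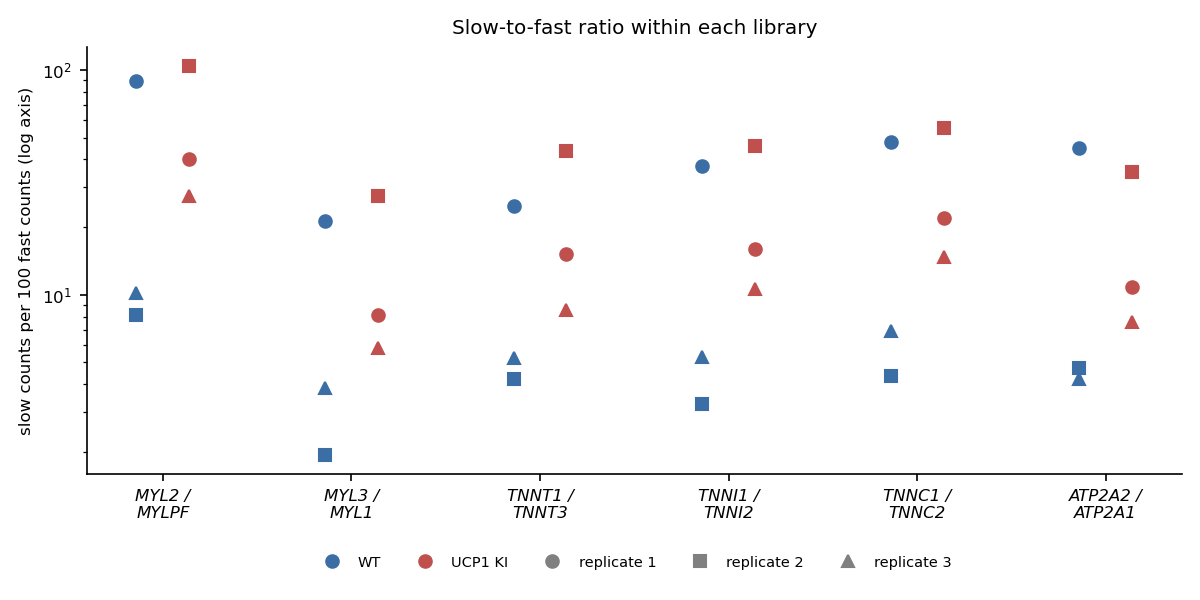
Counts of each slow gene per 100 counts of its fast paralog in the same library, on a log axis, for the 6 pairs with both genes found. Each point is 1 pig, coloured by genotype, with the replicate number as the marker shape; WT replicates 2 and 3 are the 2 lowest pigs of every pair, and WT replicate 1 lies among or above the UCP1 KI pigs.

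Genes known to accompany slow fibres were read from a list of 16, of which 12 were found and tested. In edgeR 0 of 12 passed the limits, where 8.19% of all genes tested passed in either direction. Their median log2 fold change was 0.28, and it moved to -0.076 without WT replicate 2 and 0.023 without WT replicate 3. Without WT replicate 1, 4 passed, all higher in UCP1 KI, against 4.15% of all genes in that direction. These were *MYH6*, *HSPB6*, *FABP3* and *LDHB*. WT replicate 1 was the highest pig for each of these 4, so leaving it out favoured this direction. With all 6 pigs, the 3 of the list with the smallest p were *ACTC1*, *ANKRD1* and *SLN*. *ACTC1*, cardiac actin, was at 15.0, 12.5 and 3.31 CPM in UCP1 KI replicates 1 to 3 and 54.8, 13.3 and 14.4 CPM in WT replicates 1 to 3, with an edgeR log2 fold change of -1.42 (SE 0.71, adjusted p = 0.636). WT replicate 1 was again the high pig, and without it the value was -0.43 and did not pass. With all 6 pigs DESeq2 on the same genes did call *ACTC1* (-1.41), as did edgeR with the replicate block (-1.37). *ANKRD1*, a stretch-responsive ankyrin repeat protein, was at 336, 330.0 and 55.1 CPM in UCP1 KI replicates 1 to 3 and 81.9, 93.5 and 177 CPM in WT replicates 1 to 3, with a log2 fold change of 1.03 (SE 0.64, adjusted p = 0.693) in edgeR. Its UCP1 KI replicate 3 lay below all WT pigs, and without that pig the value was 1.51 and passed. *SLN*, sarcolipin, an inhibitor of the SERCA pumps, was at 3244, 2231 and 4442 CPM in UCP1 KI replicates 1 to 3. In WT replicates 1 to 3 it was at 3527, 4534 and 7076 CPM. WT replicate 3 was highest and UCP1 KI replicate 2 lowest, as for the fast genes *MYL1* and *TNNI2* and unlike the slow genes. Its edgeR log2 fold change was -0.61 (SE 0.43, adjusted p = 0.716).

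Of 4 developmental myosin genes, 2 had enough counts to be tested and 0 of 2 passed the limits in edgeR, where 8.19% of all genes tested passed. *MYH8*, the perinatal myosin heavy chain, was at 160.2, 105 and 161 CPM in UCP1 KI replicates 1 to 3 and 100.4, 713 and 277 CPM in WT replicates 1 to 3. WT replicate 2, the pig with the lowest slow gene levels, had the highest *MYH8* level. The edgeR log2 fold change was -1.36 (SE 0.63, adjusted p = 0.622). It was -0.41 without WT replicate 2 and -1.81 without WT replicate 1, where it passed the limits. With all 6 pigs, DESeq2 on the same genes called *MYH8*, as did edgeR on all genes with any count (-1.33). *MYH3*, the embryonic myosin heavy chain, had a log2 fold change of -0.30 (SE 0.44, adjusted p = 0.871) in edgeR, and of 0.011 without UCP1 KI replicate 2. *MYL4*, the embryonic and atrial light chain, had 6 counts in UCP1 KI replicate 1, 4 in WT replicate 1 and 0 in the other libraries. *MYH15* had 0 counts in every pig, which allows up to 3 counts a library, or 0.0795 to 0.110 CPM, for counting error only.

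Regulators of the slow programme were read from a list of 32, of which 30 were found and tested. Of these 30, 2 passed the limits in edgeR, where 8.19% of all genes tested passed in either direction, so the count is near the background. Both were lower in UCP1 KI, a direction in which 4.34% of all genes passed. *FNIP1*, a folliculin-interacting protein whose loss in mice is known to shift muscle towards slow oxidative fibres, was at 8.12, 8.25 and 7.02 CPM in UCP1 KI replicates 1 to 3 and 66.9, 38.6 and 9.88 CPM in WT replicates 1 to 3. The groups did not overlap (nor did they for 7.69% of all genes tested, in this direction), although WT replicate 3 lay close to the UCP1 KI pigs. It fell by 2.30 on the log2 scale (SE 0.60, Benjamini-Hochberg adjusted p = 0.583 in edgeR), and it passed the limits without each pig in turn, with values of -2.76 to -1.65. In DESeq2 its adjusted p was 0.0173 on the genes tested here and 0.0129 without the filter on low counts, and it was the single regulator with such a p under 0.05. *NFATC2*, one of the transcription factors that calcineurin activates, was at 4.50, 3.70 and 1.03 CPM in UCP1 KI replicates 1 to 3 and 6.34, 15.2 and 9.31 CPM in WT replicates 1 to 3. The groups did not overlap here either. It fell by 1.74 on the log2 scale (SE 0.57, Benjamini-Hochberg adjusted p = 0.583 in edgeR). Without WT replicate 2 it no longer passed (-1.35). *HDAC9*, a class II histone deacetylase that represses MEF2 factors, was at 7.60, 2.24 and 0.98 CPM in UCP1 KI replicates 1 to 3 and 10.4, 13.6 and 6.31 CPM in WT replicates 1 to 3, with a log2 fold change of -1.49 (SE 0.70, adjusted p = 0.622) in edgeR. Without UCP1 KI replicate 1 it reached -2.65 and passed the limits, and with all 6 pigs it passed in DESeq2 with and without the filter on low counts, in edgeR on all genes with any count and with the replicate block. The count of regulators past the limits was 1 without WT replicate 2 and 5 without UCP1 KI replicate 3, the lowest and highest with any pig left out.

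The genes whose levels ran most like those of the slow list were sought by their distance from *MYL2*, used because *MYH7* was not analysed here. The distance was the root mean square difference of log2(CPM + 1), each gene centred on its mean over the 6 pigs, from *MYL2* to the other 13401 genes tested, and its median was 0.968. The nearest genes with a symbol outside the list were *MRPS6* at 0.142, *MASP1* at 0.174, *HSPB6* at 0.217, *RAD54L* at 0.239 and *CHRNA9* at 0.257. *MRPS6*, a mitochondrial ribosomal protein, was at 63.3, 62.5 and 34.1 CPM in UCP1 KI replicates 1 to 3 and 91.0, 17.4 and 15.3 CPM in WT replicates 1 to 3. The *MRPS6* profile thus had WT replicate 1 highest and WT replicates 2 and 3 nearly equal, as *MYL2* had. Of the members, *TNNI1* was the 13th nearest of all genes tested, *TNNC1* the 15th, *MYL3* the 38th, *ATP2A2* the 46th, *TNNT1* the 83rd and *MYH7B* the 195th. This is a description over 6 pigs that share libraries with the values above.

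Markers of other cell types were read in the same libraries. Summed fibroblast markers were at 235 to 435 CPM in UCP1 KI and 742 to 1187 CPM in WT, and 4 of 6 (*COL1A1*, *COL1A2*, *COL3A1* and *LUM*) fell in edgeR at the same limits, against 4.34% of all genes tested. Adipocyte markers summed to 286 to 372 CPM in UCP1 KI and 243 to 438 CPM in WT, with 2 of 6 tested, the lipases *LIPE* and *PNPLA2*, higher in UCP1 KI, as were 3.84% of all genes tested. The log2 fold changes of the other 4 had the opposite sign, -1.26 for *ADIPOQ*, -1.22 for *FABP4*, -1.13 for *PLIN1* and -0.80 for *CIDEC*, and *ADIPOQ* and *FABP4* passed as lower without WT replicate 1, against 3.69% of all genes. Without WT replicate 2 these 4 values were closer to 0, at -0.26, -0.078, -0.032 and 0.00042 in the same order, and the median of the 6 markers moved from -0.96 to -0.016. Smooth muscle markers summed to 145 to 271 CPM in UCP1 KI and 225 to 702 CPM in WT, the highest in WT replicate 2, and 0 of 4 passed with all pigs. Without WT replicate 3, however, *ACTA2*, *MYH11* and *CNN1* (3 of 4) passed as lower in UCP1 KI, against 5.71% of all genes in that fit, and without WT replicate 2 the median of the 4 shrank from -0.97 to -0.22, with 0 called. In DESeq2 without the filter on low counts, and in edgeR with the replicate block, 1 of 4 passed as lower, as did 3.79% and 4.25% of all genes. Red blood cell markers summed to 11.4 CPM in UCP1 KI replicate 2, 73.2 and 76.0 CPM in the other UCP1 KI pigs and 105 to 180.2 CPM in WT. In edgeR 0 of 3 passed with all pigs, and 1 passed as lower in UCP1 KI without UCP1 KI replicate 1, without UCP1 KI replicate 2 and with the replicate block. Over all genes the shares called lower in these fits were 3.35%, 2.82% and 4.25%. DESeq2 called 2 of 3 lower on the same genes and 1 without the filter on low counts, against 5.36% and 3.79% of all genes. Endothelial markers (273 to 508 CPM in UCP1 KI, 251 to 457 CPM in WT) had 1 of 4 higher in UCP1 KI, *TEK*, against 3.84% of all genes tested. The 5 leukocyte markers tested summed to 55.5 CPM in UCP1 KI replicate 2 and at most 33.1 CPM in any other pig. Of them 1, *CD3E*, was higher in UCP1 KI, against the same 3.84% of all genes tested. Without UCP1 KI replicate 2, the library with the lowest level of 7 of 8 fast genes, the median log2 fold change of the 5 moved from 0.79 to 0.03 and 0 passed. Schwann cell markers (52.3 to 61.7 and 51.6 to 66.1 CPM) had 0 of 4 called, against 8.19% of all genes tested. Without WT replicate 1 they had 1 lower, against 3.69% of all genes in that fit. Without each pig in turn, *COL1A1*, *COL1A2*, *LIPE* and *TEK* passed 6 of 6 times, *COL3A1* 5, *CD3E* 2 and *LUM* and *PNPLA2* 1. *LEP*, at or near 0 in every pig, was too low to test. The part of these other cells, and of the mitochondrial share of the counts, in the values of the slow genes was not tested.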

How the data were processed

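RNA from longissimus dorsi of 3 UCP1 KI and 3 WT pigs was sequenced by the authors, who deposited raw counts of reads per gene, not normalized, in a matrix of 30476 Ensembl genes by 6 pigs. Per the labels, the submitters' processing notes name Sscrofa11.1, FastQC 0.11.2, Trimmomatic 0.36, HISAT2 2.0, bedtools 2.26.0, StringTie 1.3.3b and DESeq2 1.12.4. The counting program, its use of strand and the annotation release are not given in the sources used here, so reads of near-identical paralogs could have been split or dropped. Since the labels do not say that the samples came from unrelated animals, p-values measure the spread between these samples.

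Symbols came from a pig gene name table, with 14864 of 30476 identifiers matched, and positions from RefSeq Sscrofa11.1 by symbol. *MYLPF* was found as *MYL11*, a name chosen after the counts were seen. Genes were filtered with filterByExpr, leaving 13402, and tested in R 4.3.3 with edgeR 4.0.16 (TMM factors, condition as the only term, two-sided quasi-likelihood F test). The standard error is the fold change divided by the square root of F. Slow-to-fast ratios used log2 of (count + 1) and a two-sided exact permutation test; their p-values are given unadjusted, although adjustment over the pairs had been planned. The procedure was tested on simulated data.

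Text names every member, every fast counterpart and, of the accompanying, developmental and regulator lists, genes past the limits and the 3 with the smallest p, plus the 5 with a symbol nearest to *MYL2* in place of *MYH7*. The members, lists and rules were chosen with earlier results of these data known. Alternatives were median-of-ratios factors, no scaling beyond library size, a minimum of 10 counts in each pig or of any count, DESeq2 1.42.0, the replicate block, no fold change limit, a pseudocount of 10 and each pig left out. No sequences were used, and transcript lengths were not used here, so levels of different genes were set against each other only as slow-to-fast ratios, compared between pigs. One listed marker is not reported here.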

Additional observations from a re-analysis of the deposited data

How the results depend on the processing

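The count of 0 of 7 slow genes was the same under each alternative scaling, filter and tool and without a limit on the fold change. Leaving out each pig gave 0 to 3 calls for the slow genes, 0 to 1 for the fast counterparts, 0 to 4 for the accompanying genes, 1 to 5 for the regulators and 678 to 1541 over all genes (678 without UCP1 KI replicate 2, 718 without WT replicate 2). Signs turned when single pigs were left out, with ranges of -1.18 to 0.73 for *MYH7B*, -0.21 to 1.47 for *MYL2*, -0.29 to 1.16 for *MYL3*, -0.16 to 0.59 for *TNNT1*, -0.13 to 1.12 for *TNNI1*, -0.24 to 0.85 for *TNNC1*, -0.079 to 1.55 for *MYH6*, -0.59 to 0.19 for *MYL1*, -0.34 to 0.71 for *ATP2A1*, -0.86 to 0.032 for *CASQ1*, -0.83 to 0.011 for *MYH3* and -0.089 to 1.67 for the ratio of *ATP2A2* to *ATP2A1*. The median SD of the slow genes ranged from 0.344 to 1.60 over pairs of WT pigs and from 0.231 to 0.536 over pairs of UCP1 KI pigs, an alternative chosen after seeing the data, as were the SD of the fast genes over pairs of pigs and the other scalings of the SD of the slow genes (0.323 and 1.37 with library size only). Scaling by library size only shifted the median of all genes on the log2 scale from -0.015 to 0.24, with 929 higher and 195 lower calls against 515 and 582, and put *MYL1* at 0.0023. The same scaling moved the median of the slow genes from 0.15 to 0.26 and that of the fast counterparts from -0.62 to -0.35. DESeq2, with and without the filter on low counts, called 1 accompanying gene, *ACTC1*, and 3 regulators, *FNIP1*, *NFATC2* and *HDAC9*. Over all genes it called 9.77% in either direction with the filter and 1389 of 20062 without it, so these counts are near the background.

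Whether the replicate numbers pair the pigs could not be told. Deviations of same-numbered pigs from their group means correlated over genes at 0.0038, 0.0943 and 0.283. UCP1 KI replicate 1 correlated better with WT replicate 2 (0.129), and UCP1 KI replicate 2 slightly better with WT replicate 1 (0.101). UCP1 KI replicate 3, however, correlated best with WT replicate 3. With the replicate block, 0 of 7 slow genes, 0 of 8 fast genes, 1 accompanying gene, 3 regulators and 1114 genes in all passed, while the median of the slow genes moved from 0.15 to 0.52, *MYL2* from 0.17 to 0.62, *MYL3* from 0.15 to 0.54, *TNNI1* from 0.25 to 0.52, *TNNC1* from 0.075 to 0.26, *TNNT1* from 0.087 to 0.16, *ATP2A2* from 0.41 to 0.68 and *MYH7B* from -0.72 to -0.33. The sign-flip exact p-values of the pair ratios were 0.5 to 0.75 (smallest possible 0.25). *MYH2* alone as the partner of *MYH7* was not run, since neither gene was analysed here. The lowest count of a slow gene in any library was 1826. The cause of these dependences was not tested.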
